A study of Mus musculus with 2 samples.

Results

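The Bcl2 family decides whether a stressed cell lives or dies at the surface of its mitochondria. Transcripts of 9 of its genes were followed here in mouse embryonic fibroblasts, the matrix-making cells that grow out of dissociated embryos. The 9 are Bcl2, Bcl2l1, Bcl2l2 and Mcl1, which are pro-survival, and Bak1, Bid, Bad, Bmf and Bcl2l11, which are pro-death. They were taken by gene symbol as the family members outside a set of p53 target genes, and all 9 were found among the 17260 genes of the deposited count table. There was 1 library from fibroblasts labelled Ahi1-/- and 1 from wild-type (WT) fibroblasts. Ahi1 codes for a scaffold protein of the primary cilium, the signalling antenna of the cell. Both libraries came from C57BL/6 embryos at day 13.5, cultured with 10% serum, and 1 ug of total RNA entered each. The sources used here do not give the allele, the number of embryos behind a culture or its passage.

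Pro-survival members hold the mitochondrial outer membrane closed by binding their pro-death relatives. Effectors such as BAK open that membrane and let cytochrome c escape, which sets off the caspases. The BH3-only members BID, BAD, BMF and BIM (the product of Bcl2l11) carry the stress signal and either occupy the groove of the pro-survival proteins or switch on the effectors directly. In fibroblasts, which in culture live on serum factors and attachment, BIM is known for responding to the loss of growth factors and BMF for responding to the loss of attachment.

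What all 9 share in sequence is the BH3 motif, the helix through which the pro-death members bind the groove. The coding stretch of that motif is shown for each gene because it is the feature that ties the 2 sides together. A search of the longest complete coding transcript of each gene (GENCODE M21, build GRCm38) for the leucine or methionine to aspartate core found 1 match in each of the 9 genes. The lines run 5′ to 3′ on the coding strand, capitals mark the 6 codons of the core, and 4 codons on each side are in lower case.
Bcl2: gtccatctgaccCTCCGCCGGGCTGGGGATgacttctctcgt
Bcl2l1: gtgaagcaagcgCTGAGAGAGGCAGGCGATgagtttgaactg
Bcl2l2: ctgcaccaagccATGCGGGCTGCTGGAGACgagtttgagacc
Mcl1: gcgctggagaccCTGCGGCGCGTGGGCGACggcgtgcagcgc
Bak1: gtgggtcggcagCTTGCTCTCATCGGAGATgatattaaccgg
Bid: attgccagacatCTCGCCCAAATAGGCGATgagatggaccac
Bad: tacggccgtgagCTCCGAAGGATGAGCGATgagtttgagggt
Bmf: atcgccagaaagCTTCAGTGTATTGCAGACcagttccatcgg
Bcl2l11: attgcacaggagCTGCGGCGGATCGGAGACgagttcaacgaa

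On GRCm38 the Bmf stretch lies at chr2:118545097-118545138 on the minus strand, in exon 4 of the transcript used. The Bcl2l11 stretch lies at chr2:128147138-128147179 on the plus strand, in exon 3, and the Bad stretch at chr19:6950780-6950821 on the plus strand, also in exon 3. The motif was coded by 4 of the 5 complete coding transcripts of Bcl2l11, by 2 of 3 for Bcl2l2 and by every one for the other 7 genes. Counts per gene, as deposited, do not separate forms with and without it.

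The library labelled Ahi1-/- held 20820756 expected counts and the WT library 19067504. A design of 1 library per genotype allows no test, p-value or replicate check, so each difference compares these libraries and not the genotypes, and each interval covers counting error only. Ahi1 itself had 370 counts in the library labelled Ahi1-/- and 410 in WT, so its level does not tell the genotypes apart. The deposited columns are headed CON and EXP, read here as WT and Ahi1-/-, and every direction rests on that reading. The make-up of the cultures also differed by marker genes. Red blood cell markers summed to 24.7 TPM (a level corrected for transcript length and library size) in the library labelled Ahi1-/- and 1833 TPM in WT, with all 11 measured markers at least 2-fold lower, 9 of them with the minimum of 50 counts, and Hba-a2 and Gata1 at 0 in the library labelled Ahi1-/-. Cartilage markers summed to 54.5 TPM in the library labelled Ahi1-/- and 951 TPM in WT, with all 6 lower and 5 of them at least 2-fold lower. Fibroblast markers summed to 19502 TPM in the library labelled Ahi1-/- and 7672 TPM in WT, with 7 of 9 at least 2-fold higher. Pdgfrb was 1.69-fold higher and Vim lay near equality. Epithelial markers summed to 39.5 TPM in the library labelled Ahi1-/- and 16.2 TPM in WT, with 4 of 4 measured higher and Krt5 at 0 in WT. Neural markers summed to 101 TPM in the library labelled Ahi1-/- and 30.9 TPM in WT, with 3 of the 4 that reached 50 counts higher, 1 lower, Dcx at 0 in the library labelled Ahi1-/- and Elavl4 at 0 in WT. Muscle markers summed to 92.3 TPM in the library labelled Ahi1-/- and 4.66 TPM in WT, with 2 of 2 measured higher and Myh3 at 0 in WT. Leukocyte markers summed to 17.3 TPM in the library labelled Ahi1-/- and 28.1 TPM in WT. Of the 3 that reached 50 counts, 2 were at least 2-fold lower and Csf1r was 1.45-fold lower. Adgre1, under that minimum, had 39 counts in the library labelled Ahi1-/- and 4 in WT. Itgam, also under it, had 39 counts in the library labelled Ahi1-/- and 12 in WT. Endothelial markers summed to 1.39 TPM in the library labelled Ahi1-/- and 1.75 TPM in WT, with none of the 4 measured reaching 50 counts. They were mixed in direction. Cdh5 had 1 count in the library labelled Ahi1-/- and 9 in WT, and Tie1 had 0 and 20. Emcn went the other way, with 8 counts in the library labelled Ahi1-/- and 1 in WT. Kdr had 20 in each, and Tek had 9 in the library labelled Ahi1-/- and 8 in WT. The part of these other cells in the values below was not tested, and fewer cells of a type cannot be told apart from less RNA per cell.

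Apart from Mcl1, the pro-survival and pro-death genes among these 9 lay on opposite sides of the comparison. In the library labelled Ahi1-/-, 3 of 4 pro-survival genes were higher by 1.38-fold to 1.73-fold and the other, Mcl1, lay near equality, while all 5 pro-death genes were lower, by 1.13-fold to 4.08-fold. A gene was called when its levels were 2-fold or more apart and the larger count was 50 or more. By that rule 0 of 9 members were higher and 3 were lower (Bmf, Bad and Bcl2l11), all of them BH3-only. Over all 12075 genes with enough counts, 16.0% were called higher and 10.3% lower. The median log2 ratio, Ahi1-/- over WT, was 0.60 for the 4 pro-survival genes and -1.06 for the 5 pro-death genes, against -0.04 for all genes tested. The pro-death median depends on the choice of genes. It was -0.38 with Bax, Bok, Bbc3, Pmaip1 and Bik, pro-death relatives outside the 9, added.

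**Figure D1:**
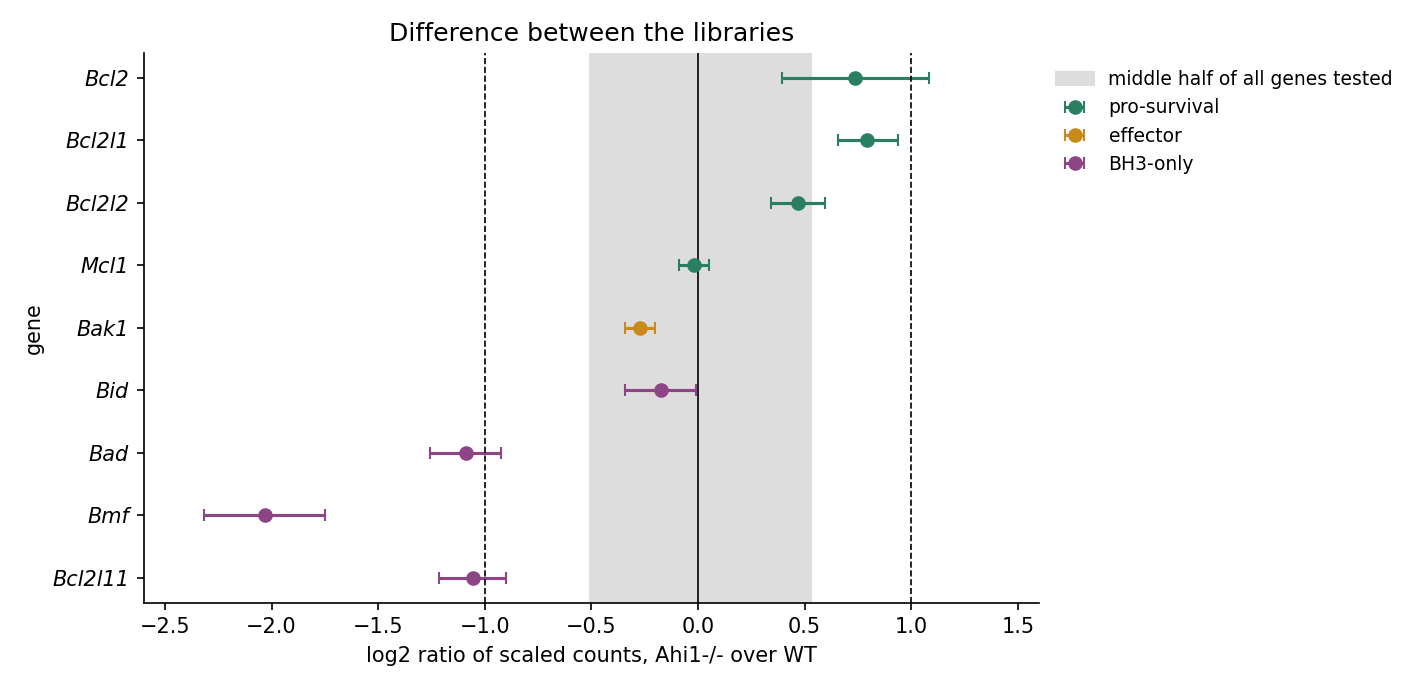
Log2 ratio of scaled counts (Ahi1-/- over WT) for each gene, coloured by role, with exact 95% intervals for counting error; the dashed lines mark 2-fold and the grey band spans the middle of all genes tested, -0.51 to 0.53. The 3 called genes sit at or left of the lower dashed line, and Bcl2 and Bcl2l1 sit to the right of the grey band but short of the upper dashed line.

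Among the pro-survival genes, Bcl2l1 differed most. It codes for BCL-XL, a guardian of the outer membrane in most adherent cells, and had 1136 counts (49.0 TPM) in the library labelled Ahi1-/- and 649 counts (27.8 TPM) in WT. Its log2 ratio was 0.79 (95% interval 0.65 to 0.94), an interval that excludes both equality and 2-fold. Of all genes tested, 81.0% had a ratio at or below it.

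Bcl2, the founding member of the family, had the lowest TPM of the 9 in WT and could not be told apart from Bmf at the low end in the library labelled Ahi1-/-. It had 190 counts (3.08 TPM) in the library labelled Ahi1-/- and 113 counts (1.75 TPM) in WT, a log2 ratio of 0.74. Its interval, 0.39 to 1.09, is the widest on the pro-survival side and reaches past 2-fold. Bcl2l2, which codes for BCL-W, had 1207 counts (38.0 TPM) against 864 counts (26.3 TPM) in WT, and its log2 ratio of 0.47 (0.34 to 0.60) lay inside the middle range of all genes.

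Mcl1 codes for a short-lived guardian whose protein is rapidly turned over. It had 3316 counts (106 TPM) in the library labelled Ahi1-/- and 3329 counts (103 TPM) in WT. The ratio was 0.99 (0.94 to 1.04, log2 -0.02), and its side of equality depended on the scaling, with a log2 ratio of 0.035 under upper-quartile scaling. Mcl1 was the most abundant pro-survival transcript in both, so the largest pool on that side stayed near equality while the 3 smaller ones were higher.

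On the pro-death side the effector Bak1 had the highest level of the 9 in both libraries. It had 2942 counts (165 TPM) in the library labelled Ahi1-/- and 3521 counts (192 TPM) in WT, a 1.21-fold lower value (log2 -0.27, interval -0.34 to -0.20). Bid codes for the BH3-only protein that caspase-8 cleaves to link death receptors with mitochondria. It had 561 counts (33.2 TPM) against 628 counts (36.3 TPM) in WT, and its log2 ratio of -0.18 had an interval of -0.34 to -0.01. Both genes lay inside the middle range of all genes tested.

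Bmf was the member furthest from equality. It had 130 counts (3.12 TPM) in the library labelled Ahi1-/- and 526 counts (12.4 TPM) in WT. That is 4.08-fold lower (log2 -2.03, interval -2.32 to -1.75), and 2.41% of all genes tested had a ratio at or below it.

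Bcl2l11, which codes for BIM, had 483 counts (11.0 TPM) in the library labelled Ahi1-/- and 996 counts (22.4 TPM) in WT, 2.08-fold lower (log2 -1.06, interval -1.22 to -0.90). Bad, whose protein is held inactive by survival kinases while growth factors are present, had 430 counts (48.0 TPM) against 907 counts (101 TPM) in WT, 2.13-fold lower (log2 -1.09, interval -1.26 to -0.92). Both intervals contain a 2-fold difference, so both calls stand on the threshold, whereas the interval of Bmf lies wholly beyond it. The authors' deposited table of FPKM values (also corrected for length and library size) lists 22.4% of the genes, each at least 2-fold apart where both values are above 0. It holds the same 3 members and none of the other 6. As it comes from the same libraries with a like fold limit, it is no separate check. There Bmf has 1.37 FPKM in the library labelled Ahi1-/- against 6.09 FPKM in WT, Bcl2l11 has 4.84 against 10.99 in WT, and Bad has 21.1 against 49.84 in WT.

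**Figure D2:**
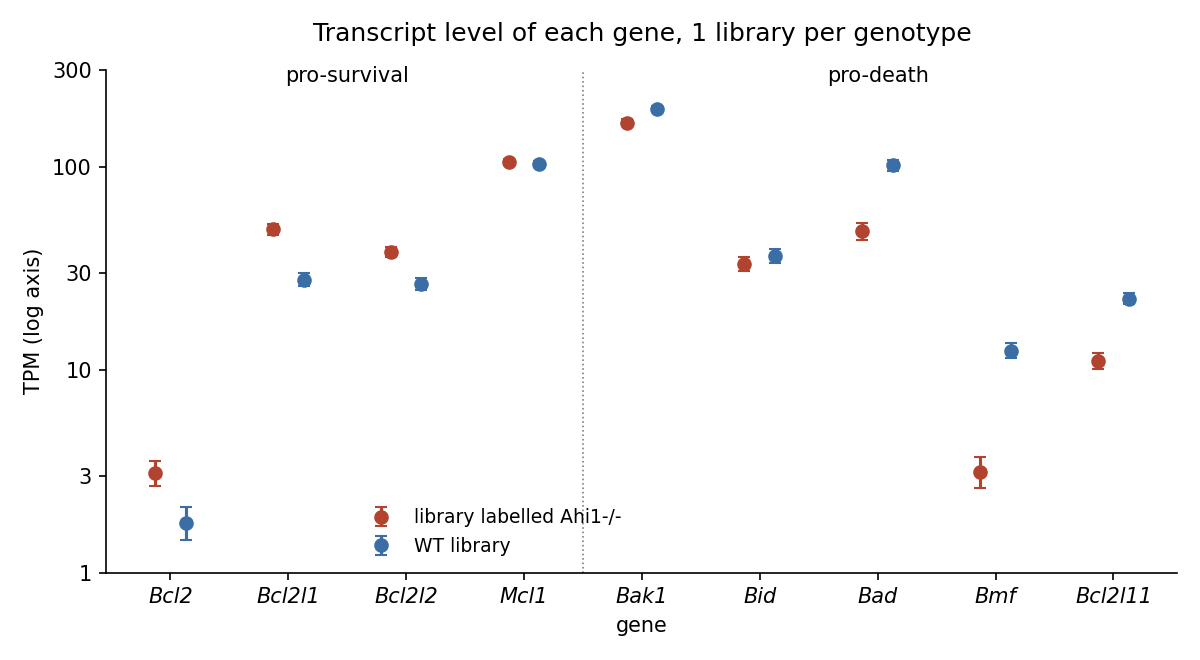
TPM of each gene on a log axis in the library labelled Ahi1-/- (red) and in WT (blue), with exact 95% Poisson intervals for counting error. Bmf and Bcl2l11 show the red point well below the blue one, Bcl2l1 shows the reverse, and the points of Mcl1 nearly coincide, at 106 TPM in the library labelled Ahi1-/- and 103 TPM in WT.

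The ratios were also set beside the medians of the chromosomes that carry the genes. Bad lies on chromosome 19, where the 430 genes tested had a median log2 ratio of -0.66 and 36.3% were called lower, more than 3 times the share over all genes. Relative to that median, Bad was at -0.43, within 2-fold. Bak1 lies on chromosome 17, whose median was -0.32, and relative to it Bak1 was at 0.050, on the other side of equality. Bmf, Bcl2l11 and Bcl2l1 all lie on chromosome 2, whose median was -0.14 and where 10.5% of genes were called lower and 14.3% higher. Relative to that median they stood at -1.89, -0.91 and 0.94, so of the 3 called genes Bmf alone stayed beyond 2-fold. The part of the chromosome-wide differences in the ratios of single genes was not tested.

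**Figure D3:**
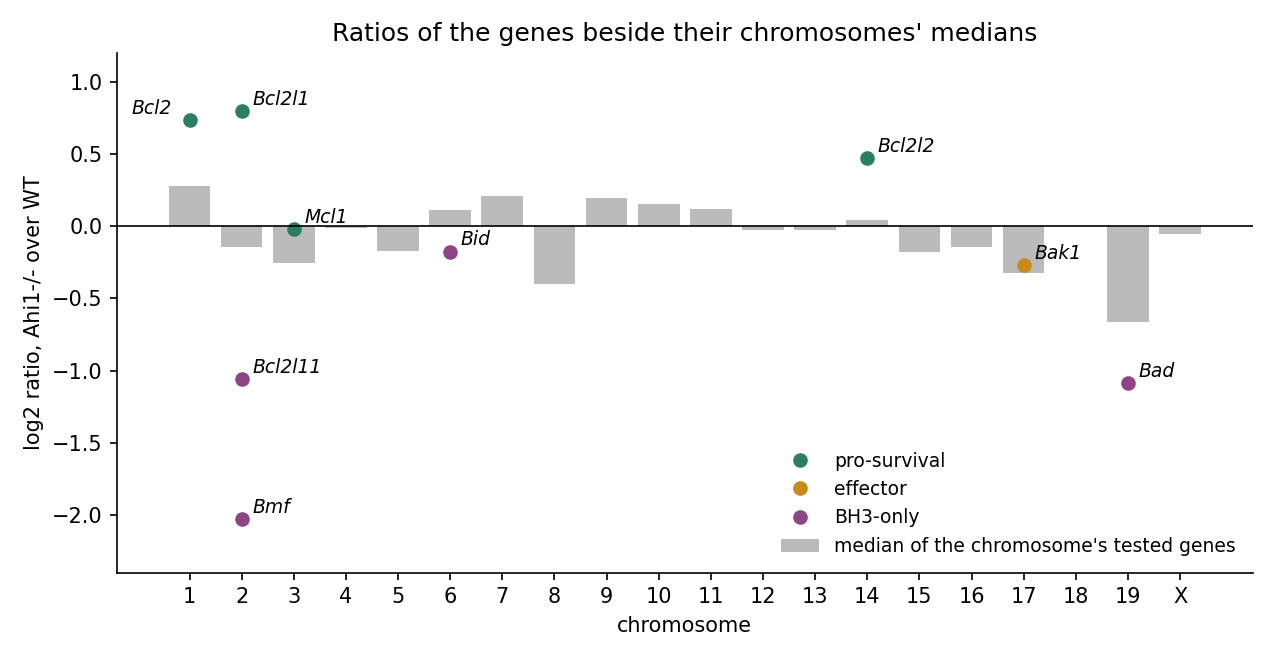
Log2 ratio (Ahi1-/- over WT) of each gene, coloured by role, above the chromosome that carries it; grey bars are the median of the genes tested on that chromosome, Y left out. Bad sits over the deepest bar, at -0.66 on chromosome 19, while Bmf and Bcl2l11 sit far below the bar of -0.14 on chromosome 2 and Bcl2l1 above it.

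Levels between genes can be set side by side as TPM. In the library labelled Ahi1-/- the order from the top was Bak1, Mcl1, Bcl2l1, Bad, Bcl2l2, Bid, Bcl2l11, Bmf and Bcl2. There the counting intervals overlapped between Bcl2l1 and Bad, between Bcl2l2 and Bid, and between Bmf and Bcl2. In WT the order was Bak1, Mcl1, Bad, Bid, Bcl2l1, Bcl2l2, Bcl2l11, Bmf and Bcl2, with overlaps between Mcl1 and Bad and between Bcl2l1 and Bcl2l2. Bcl2l1 stood above Bid in that library and below it in WT.

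Summed over the 4 pro-survival genes, the level was 196 TPM in the library labelled Ahi1-/- and 159 TPM in WT. The 5 pro-death genes summed to 259.99 TPM in the library labelled Ahi1-/- and 365 TPM in WT. Pro-survival transcripts therefore made up 43.0% of the 9-gene total in the library labelled Ahi1-/- and 30.4% in WT, a difference of 12.6 percentage points (95% interval from counting error 11.3 to 13.9). For the 4 BH3-only genes alone the sums were 95.4 TPM in the library labelled Ahi1-/- and 172 TPM in WT. That is 0.49 TPM per TPM of pro-survival transcript in the library labelled Ahi1-/- and 1.08 in WT. Without Bak1 and Bad, the members on chromosomes 17 and 19, the pro-survival share was 80.5% in the library labelled Ahi1-/- and 69.2% in WT.

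The size of that difference depends on which family genes are counted, because 3 pro-death members known as p53 targets were higher in the library labelled Ahi1-/-. Bax, the partner effector of Bak1, had 2293 counts (306 TPM) in the library labelled Ahi1-/- and 1208 counts (157 TPM) in WT. Bbc3, which codes for PUMA, had 422 counts (25.2 TPM) against 279 counts (17.6 TPM) in WT, and Pmaip1, which codes for NOXA, 367 counts (15.4 TPM) against 26 counts (1.08 TPM). With these 3, Bok and Bik added, the pro-survival share was 23.3% in the library labelled Ahi1-/- and 21.1% in WT, a difference of 2.18 points (1.30 to 3.05). Effectors then summed to 509.8 TPM against 403 TPM in WT, and the 7 measured BH3-only genes to 136 TPM against 193 TPM. The BH3-only sum was thus lower with PUMA and NOXA included as well, while the effector sum changed sides. Most of that BH3-only difference came from Bad on chromosome 19, at 48.0 TPM in the library labelled Ahi1-/- against 101 TPM in WT. Set against Bak1 and Bax alone, the pro-survival share was lower in the library labelled Ahi1-/-, at 29.4% (28.6% to 30.2%) there and 31.3% (30.4% to 32.2%) in WT.

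**Figure D4:**
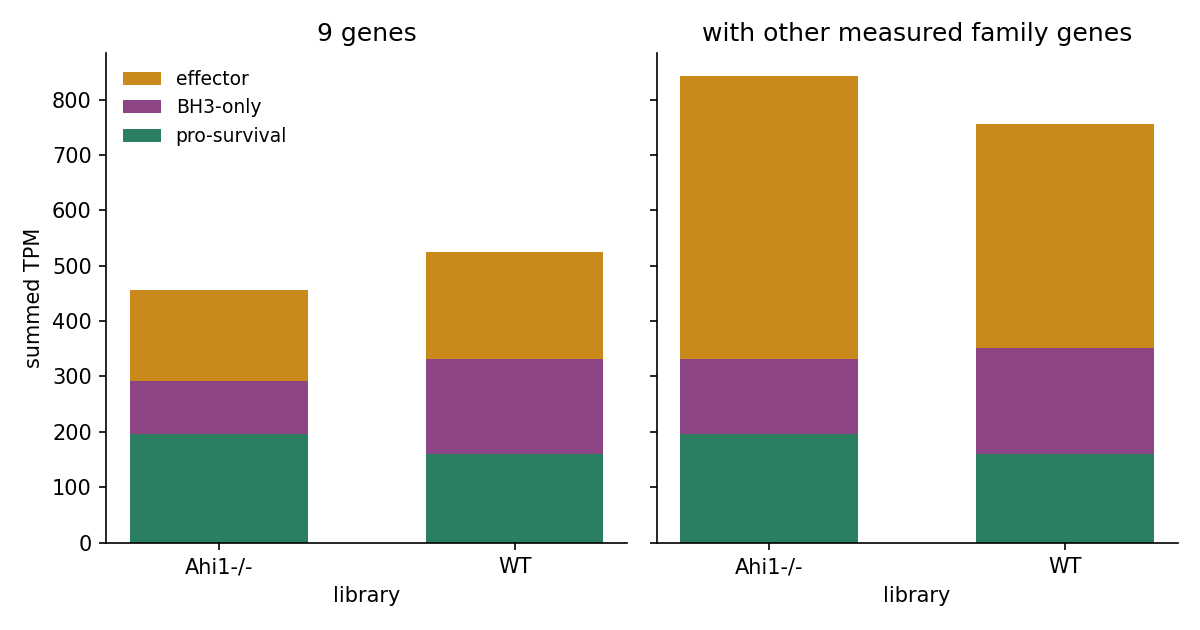
Summed TPM by role in the library labelled Ahi1-/- and in WT, for the 9 genes (left) and with Bax, Bok, Bbc3, Pmaip1 and Bik added (right); bars start at 0 and have no replicate error. The BH3-only block is smaller in the library labelled Ahi1-/- on both sides (95.4 TPM against 172 TPM in WT on the left), whereas the effector block is smaller there on the left (165 TPM against 192 TPM in WT) and larger on the right (509.8 TPM against 403 TPM in WT).

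Genes up and down stream of the 9 were described from lists of pathway genes. Of 8 measured relatives in the family (at least 10 counts over both libraries), 6 had enough counts to be called. Of these 6, 1 was called higher and 0 lower, beside 16.0% higher and 10.3% lower over all genes tested. The gene called higher was Pmaip1 (log2 3.81, interval 3.23 to 4.44), and the median log2 ratio of the 8 was 0.35. The leukocyte pro-survival genes Bcl2a1a and Bcl2a1d were listed at 0 after rounding in both libraries and Bcl2a1b had 1 count in the library labelled Ahi1-/- and 0 in WT. Of 15 genes of the apoptosome, the caspases and their inhibitors, 0 were higher and 1 lower, with 11 below 0 and a median of -0.62. That is no larger a share than the 10.3% of all genes tested that were called lower. Casp2, the lower one, had 449 counts in the library labelled Ahi1-/- against 901 counts in WT, 2.02-fold lower (log2 -1.02, interval -1.18 to -0.85). Among the 11 below 0, the intervals of Dffb (-0.71 to 0.03) and Diablo (-0.28 to 0.04) contain 0.

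In the death receptor arm that feeds Bid, 0 of 8 genes were called, 7 lay above 0, and the median log2 ratio was 0.31. Over all genes tested, 26.4% were called in either direction. Among the 7 above 0, the intervals of Fas (-0.19 to 0.20) and Fadd (-0.08 to 0.38) contain 0. The receptor Tnfrsf1a had 3362 counts against 2447 counts in WT (log2 0.45) and the kinase Ripk1 1324 against 1165 (log2 0.17). Casp8, which cleaves BID and was chosen after its values were seen, had 1134 counts against 594 counts in WT (log2 0.92, interval 0.78 to 1.07). All 7 genes of the mitochondrial membrane lay below 0, none past 2-fold, with a median of -0.47. For Mtch2 (log2 -0.038) the interval, -0.13 to 0.05, contains 0. Among them Slc25a4 had 7075 counts against 9280 in WT and the channel Vdac1 5148 against 7406. Of 13 binding partners and turnover factors 0 were called and the median was -0.06. They include the dynein light chains that tether BIM and BMF, the scaffolds that hold phosphorylated BAD, and Foxo1 and Foxo3. The BAD-binding scaffolds Ywhae (12474 counts against 13558 in WT) and Ywhaz (9317 against 10766) had the most counts of these.

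**Figure D5:**
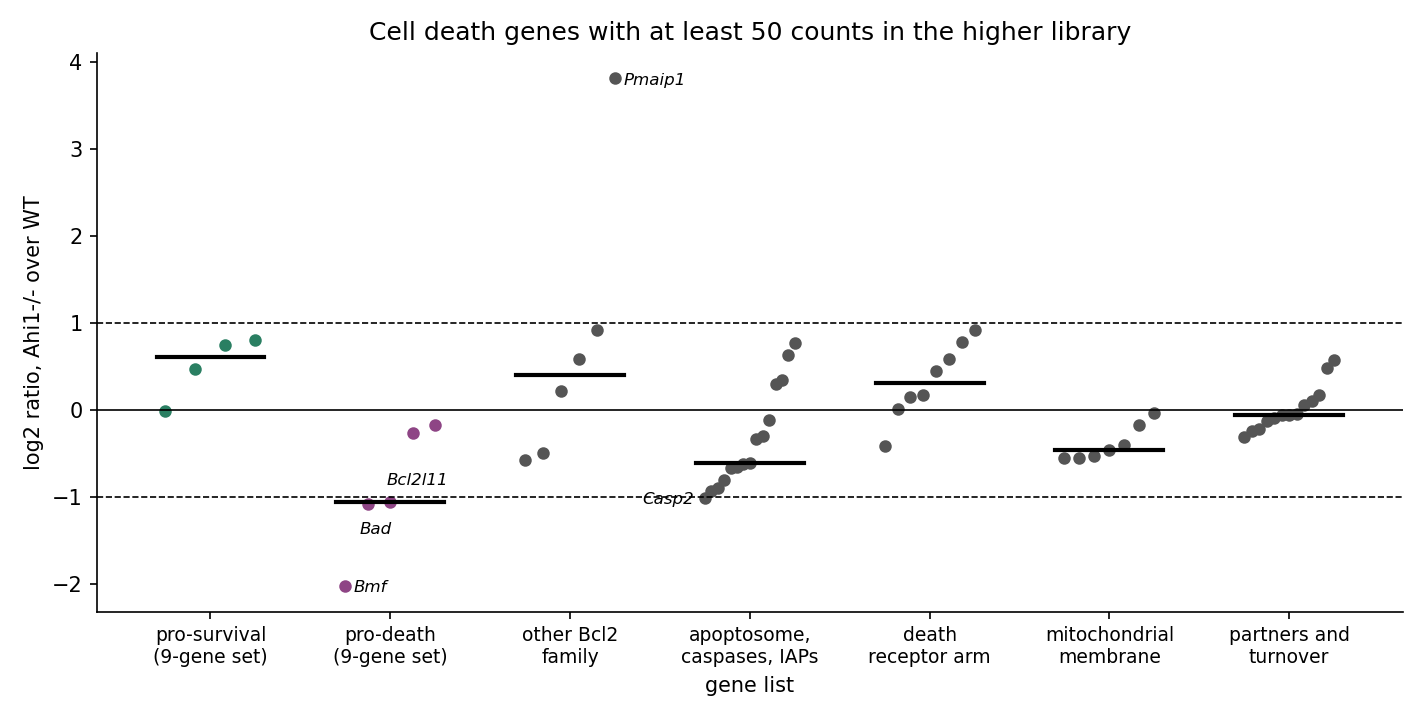
Log2 ratio (Ahi1-/- over WT) of every listed cell death gene whose larger count was 50 or more; black bars are the list medians and dashed lines mark 2-fold, with called genes named. The caspase and mitochondrial membrane lists have medians of -0.62 and -0.47, the death receptor arm one of 0.31, and the point of Pmaip1 stands alone at 3.81.

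The promoters were read because Bmf and Bcl2l11 were both called lower, as was Bad. FOXO factors are known to drive Bcl2l11, and E2F factors are known to act on several BH3-only genes. The RefSeq promoter table (GRCm38.p6) gave 15 windows for the 9 genes, each the 250 bases before a start. They were searched on both strands for the FOXO core GTAAACA and for the E2F letters TTTGGCGC or TTTCGCGC, motifs that do not overlap each other and were chosen after the ratios were seen. The FOXO core was found in 1 window, that of the upstream start of Bcl2l11, and 3.17% of all 32851 windows of this length hold it. That window is shown because it carries the match, which is in capitals 227 bases before the start, at chr2:128125788-128126037 on the plus strand.
Bcl2l11 promoter: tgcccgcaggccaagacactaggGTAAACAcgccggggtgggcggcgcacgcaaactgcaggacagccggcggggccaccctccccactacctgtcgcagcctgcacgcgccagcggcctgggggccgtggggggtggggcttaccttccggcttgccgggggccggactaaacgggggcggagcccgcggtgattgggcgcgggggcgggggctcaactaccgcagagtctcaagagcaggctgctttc

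The other Bcl2l11 window, the 3 windows of Bmf and those of Bad held neither motif. Of the Bmf windows, 1 (chr2:118544588-118544837, minus strand) lies downstream of the stretch that codes the BH3 motif. So does 1 of the Bcl2l1 windows (chr2:152828490-152828739, minus strand). The E2F letters were found in 1 window, of another Bcl2l1 start, against 0.65% of all windows. A match is a description of these letters and no evidence that a factor binds there. Transcripts of Foxo3 numbered 2561 counts in the library labelled Ahi1-/- and 2630 in WT (log2 -0.051, interval -0.13 to 0.03). Those of Foxo1 numbered 489 in the library labelled Ahi1-/- and 605 in WT (log2 -0.32, interval -0.49 to -0.15). These counts do not measure the activity of the FOXO proteins, and their part in the Bcl2l11 values was not tested.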

How the data were processed

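Gene-level expected counts deposited by the authors, partly fractional, were rounded to whole numbers. The same file holds TPM, which the authors normalized for length and library size, per the file headers. Another deposited file gives FPKM for 3872 genes. Build mm8, RSEM 1.2.12, Bowtie2 2.2.5 and HISAT2 2.0.4 are named, without roles, in the submitters' processing notes. The sources used here do not give the annotation, any filter or the use of strand. All 6 value columns were used and 0 left out.

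Libraries were scaled on the whole table with TMM (edgeR 4.0.16, R 4.3.3), since 1 library per genotype allows no fit. Ratios carry exact 95% Clopper-Pearson intervals on counts. TPM intervals are exact Poisson, and intervals of TPM shares use 1.96 standard errors by the delta method. None of them covers differences between cultures. The calculation was tested on simulated data. Python 3.11.15, numpy 2.4.6, pandas 2.3.3 and scipy 1.17.1 were used. Chromosomes came from GRCm38.p6, which matched 17210 of 17260 identifiers, a build other than mm8, so it gave no coordinates for the counts.

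The members and lists were chosen with earlier results of these data known. The naming rule took all 9 members, Ahi1, and from each pathway list up to 4 called genes of largest ratio or, with none called, the 2 with most counts. Bax, Bbc3, Bok, Bik, Bcl2a1a, Bcl2a1b, Bcl2a1d, Casp8, Foxo1, Foxo3, Dffb, Diablo, Fas, Fadd and Mtch2 fall outside it and were chosen after their values were seen. With 2 libraries, no genes could be ranked for a pattern like a member's. 1 gene of the pathway lists is not reported here.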

Additional observations from a re-analysis of the deposited data

How the results depend on the processing

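With 1 library per genotype no library could be left out. No paired analysis was possible because each genotype had 1 library and no test was made. Of 109 recomputed values, 95 stayed within the counting interval or within 1.5 times the count, 14 moved and 0 called values changed sign. The 3 calls held under DESeq2 1.42.0 size factors, total counts and upper-quartile scaling. Total counts put the median of all genes at -0.16 and gave log2 ratios of -0.13 for Mcl1 and -0.39 for Bak1. With chromosome medians subtracted, log2 ratios were 0.94 for Bcl2l1, 0.24 for Mcl1, 0.050 for Bak1 and -0.43 for Bad, which is also the pro-death median; Bcl2l11, at -0.91, was also within 2-fold. At 1.5-fold, 2 of the 9 members were higher (Bcl2 and Bcl2l1) and 3 lower, beside 2850 of the 12075 genes tested higher and 2606 lower. At 3-fold, 1 of the 9 members (Bmf) and 510 of the 12075 genes were lower. A minimum of 200 counts left 1266 genes higher. Adding Bax, Bok, Bbc3, Pmaip1 and Bik gave a pro-death median of -0.38 and a share difference of 2.18 points. Ratios from FPKM ran lower by a median of 0.11.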

Other observations

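Several members share genomic sequence with other genes in GENCODE M21. Bid overlaps Bcl2l13, a mitochondrial relative of the family, on the opposite strand, and Bcl2l13 had 896 counts in the library labelled Ahi1-/- and 1328 in WT. Bad overlaps Gpr137 on the opposite strand, which had 538 counts in the library labelled Ahi1-/- and 637 in WT. Bak1 overlaps Ggnbp1 on the opposite strand, with 19 counts in the library labelled Ahi1-/- and 20 in WT. Bcl2l2 overlaps the same-strand gene Gm20521. The sources used here do not say whether the counting used strand, so reads in the overlaps cannot be told apart.

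The ratio of TPM to counts of a gene moves when the mix of its transcript lengths moves. On the log2 scale, Ahi1-/- over WT, TPM ratios exceeded count ratios by a median of 0.047 over all genes tested (middle range 0.043 to 0.053). The 9 members lay between 0.011 for Bad and 0.079 for Bcl2.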
